A study of Mus musculus with 11 samples.

Results

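The glutathione peroxidase family was followed in bulk RNA-Seq of whole mouse cochleae through 6 genes, *Gpx1*, *Gpx2*, *Gpx3*, *Gpx4*, *Gpx7* and *Gpx8*, of 18667 genes listed. The 6 members were chosen from results of these same libraries, with the fold changes between genotypes known, so their values between genotypes are given as a description, with no p. Where members are counted under a rule applied to all genes, nothing is read from the count. Glutathione peroxidases reduce hydrogen peroxide or lipid hydroperoxides to water or alcohols, most of them at the expense of glutathione. In some members the reactive residue is selenocysteine, which is inserted at a UGA codon that would otherwise end translation, and in others a cysteine stands in its place. In the cochlea the family is known as part of the defense against the peroxides that accompany noise and ageing.

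The study compared cochlear libraries of *Atf6*+/+ (n = 5) and *Atf6*-/- mice (n = 6) at 2 months of age, where n counts libraries. Each library came from an individual cochlea, and the mouse of each cochlea is not given. ATF6 is a membrane-bound transcription factor of the unfolded protein response, and the *Atf6*-/- allele carries a premature stop codon in exon 4. Both genotypes were on the C57BL/6J background, which carries the *Cdh23* ahl allele of age-related hearing loss, so every library came from a strain that loses hearing with age. Values are FPKM, fragment numbers scaled to transcript length and to the reads mapped in a library, so levels can be set side by side between genes. Read numbers per library and gene were not used here.

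*Atf6* itself, the targeted gene, stood at 8.25 to 10.6 FPKM in the *Atf6*+/+ libraries and at 3.83 to 4.59 FPKM in the *Atf6*-/- libraries, with no overlap. Its log2 fold change was -1.13 ± 0.08 (SE; adjusted p = 5.17e-05, limma, 6 of 6 *Atf6*-/- libraries lower), so each library matched its genotype label. The tissue label was checked against marker genes. *Coch*, the secreted protein of spiral ligament fibrocytes, had a mean of 2755 FPKM and *Ocm*, the calcium buffer of outer hair cells, one of 55.9 FPKM over the 11 libraries. Markers of other tissues were present as well. The erythroid gene *Hba-a1* had a mean of 5085 FPKM and the osteoblast gene *Bglap* one of 264 FPKM. *Bpifa1*, of middle ear and airway epithelium, had one of 255.5 FPKM.

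The 6 members covered a wide range of abundance. *Gpx4* was the most abundant, with a mean of 656 FPKM over the 11 libraries and rank 67 among all genes listed, followed by *Gpx3* (246 FPKM), *Gpx2* (164.5 FPKM), *Gpx1* (127 FPKM), *Gpx8* (32.5 FPKM) and *Gpx7* (6.36 FPKM). *Gpx4* was above *Gpx3*, *Gpx1* above *Gpx8* and *Gpx8* above *Gpx7* in 11 of 11 libraries. The order of the 3 genes in the middle was less settled: *Gpx3* was above *Gpx2* in 9 of 11 libraries, and *Gpx2* was above *Gpx1* in 3 of 5 *Atf6*+/+ and in 6 of 6 *Atf6*-/- libraries. The remaining family genes lay below *Gpx7* in every library. *Gpx5*, an epididymal gene, reached at most 0.03 FPKM and was below the filter of a mean of 0.1 FPKM. *Gpx6*, known from olfactory epithelium, had 0.56, 0.43, 0.38, 0.26 and 0.61 FPKM in *Atf6*+/+ replicates 1 to 5 and between 0.11 and 1.86 FPKM (median 0.56) in the *Atf6*-/- libraries. All 6 members passed the filter.

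Summed over the 8 family genes, transcripts reached 1260 ± 144 FPKM in *Atf6*+/+ (SD, n = 5) and 1210 ± 126 FPKM in *Atf6*-/- cochleae (SD, n = 6). That was 0.252% of all FPKM in each genotype, with an SD of 0.018 percentage points in *Atf6*+/+ and 0.021 in *Atf6*-/- libraries. *Gpx4* alone made up between 49.4% and 59.0% of the sum in every library. The family total thus differed between genotypes by less than its spread between libraries.

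**Figure D1:**
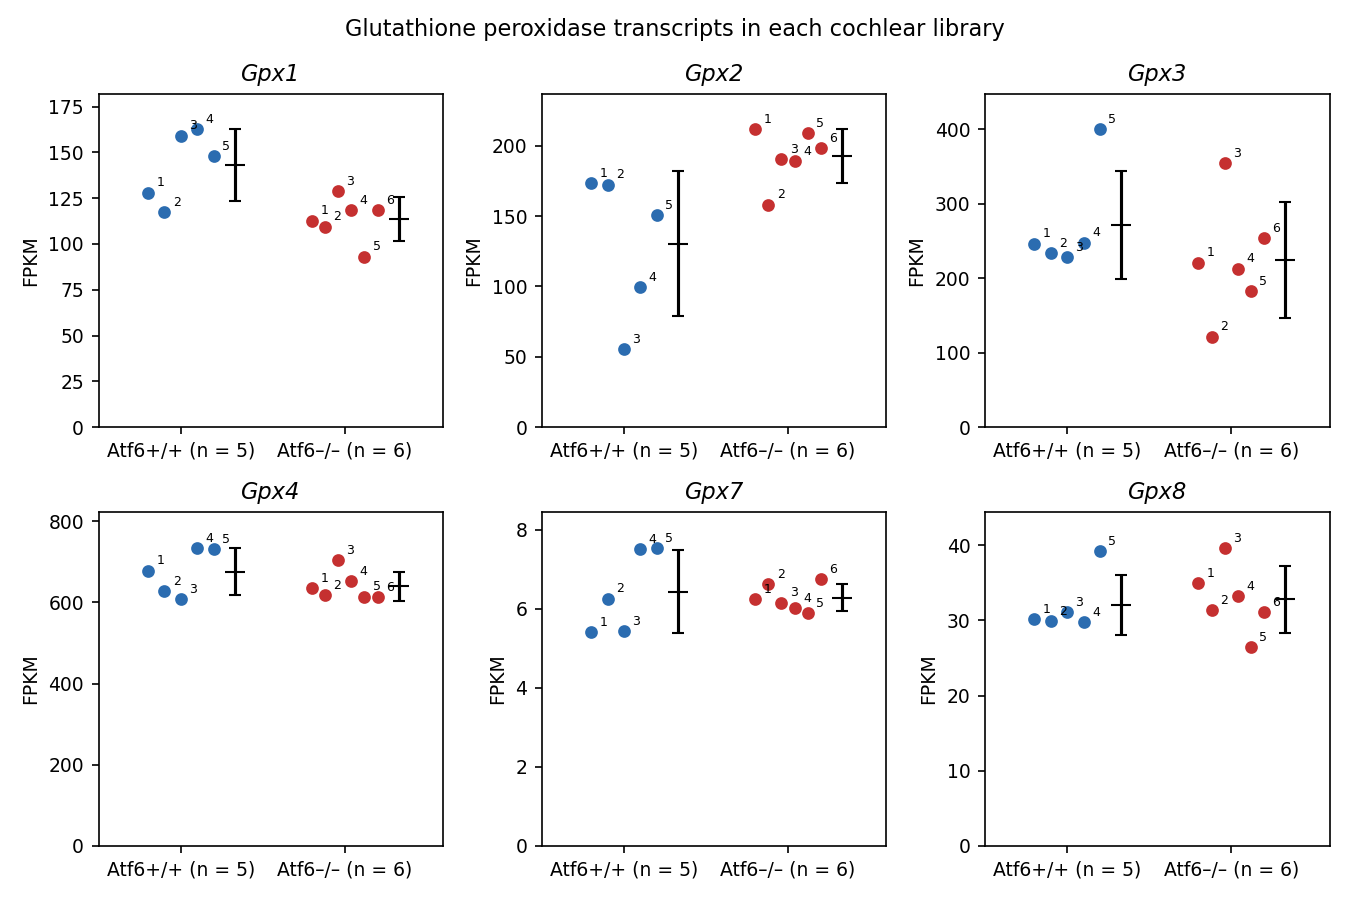
FPKM (vertical axis, from 0) of each family member in every *Atf6*+/+ (blue, n = 5) and *Atf6*-/- (red, n = 6) library, numbered by replicate, with the mean and SD in black beside each group. *Gpx2* ranged from 55.4 to 174 FPKM in *Atf6*+/+ and from 158 to 212 FPKM in *Atf6*-/- libraries, while *Gpx4* varied by a factor of only 1.21 between the highest and the lowest of the 11 libraries.

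*Gpx1* encodes the ubiquitous selenoenzyme of the cytosol and mitochondria. It had 128, 117, 159, 163 and 148 FPKM in *Atf6*+/+ replicates 1 to 5, and a lowest value of 93.1, a median of 116 and a highest value of 129 FPKM in the *Atf6*-/- libraries. All 6 *Atf6*-/- libraries lay below the *Atf6*+/+ mean, but only 3 lay below the lowest *Atf6*+/+ library, so the groups overlapped. The means were 143 ± 19.6 FPKM (SD, n = 5) and 113.5 ± 12 FPKM (SD, n = 6), and the log2 fold change, on values with a pseudocount of 0.1 FPKM, was -0.33 ± 0.10 (SE). *Gpx1* was lower in *Atf6*-/- cochleae under each scaling between libraries.

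*Gpx2* encodes a selenoenzyme known above all from epithelia of the gut. The paper names *Gpx2* among stereocilia genes that differed significantly between genotypes by DESeq2, a result from these same libraries. *Gpx2* had 174, 172, 55.4, 99.8 and 151 FPKM in *Atf6*+/+ replicates 1 to 5, and between 158 and 212 FPKM (median 194) in the *Atf6*-/- libraries. The low values belonged to *Atf6*+/+ replicates 3 and 4, whereas 5 of 6 *Atf6*-/- libraries lay above the highest *Atf6*+/+ library. The groups overlapped through the remaining *Atf6*-/- library, replicate 2, and *Atf6*+/+ replicates 1 and 2. The means were 130 ± 51.5 FPKM (SD, n = 5) and 193 ± 19.4 FPKM (SD, n = 6), with a log2 fold change of 0.68 ± 0.25 (SE), positive under each scaling. The coefficient of variation was 39.5% in *Atf6*+/+ and 10% in *Atf6*-/- libraries. Without *Atf6*+/+ replicate 3 the log2 fold change was 0.40.

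*Gpx3* encodes the secreted selenoenzyme of plasma and extracellular fluid. It had 246, 233, 229, 248 and 399.8 FPKM in *Atf6*+/+ replicates 1 to 5, and between 122 and 355 FPKM (median 217) in the *Atf6*-/- libraries. A single *Atf6*+/+ library, replicate 5, stood above the others, and 4 of 6 *Atf6*-/- libraries lay below the lowest *Atf6*+/+ library. The spread was wide in both genotypes, at 271 ± 72.4 FPKM (SD, n = 5) and 224 ± 77.8 FPKM (SD, n = 6), and the log2 fold change of -0.31 ± 0.23 (SE) kept its sign under each scaling. Without *Atf6*-/- replicate 2 it was -0.15. Within genotypes, *Gpx3* and *Gpx2* varied more between libraries than 93.7% and 94.6% of the 13611 genes whose mean reached 1 FPKM.

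*Gpx4* encodes the enzyme that reduces phospholipid hydroperoxides within membranes and so holds back ferroptosis. It had 678, 628, 609, 735 and 731 FPKM in *Atf6*+/+ replicates 1 to 5, and between 613 and 704 FPKM (median 627) in the *Atf6*-/- libraries. Every *Atf6*-/- library lay within the range of the *Atf6*+/+ libraries. The means were 676 ± 57.9 FPKM (SD, n = 5) and 639.5 ± 35.0 FPKM (SD, n = 6), and the log2 fold change was -0.078 ± 0.070 (SE), or -0.021 after rescaling to TPM. The coefficient of variation was 8.56% in *Atf6*+/+ and 5.48% in *Atf6*-/- libraries, beside 16.4% and 5.42% for *Gpx7*. Of the genes whose mean reached 1 FPKM, 26% had a smaller pooled SD of log2 values within genotypes than *Gpx4*.

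*Gpx7* and *Gpx8* encode the members of the endoplasmic reticulum (ER), which carry cysteine and pass oxidizing equivalents from peroxide to protein disulfide isomerases. *Gpx7* had 5.42, 6.26, 5.44, 7.52 and 7.55 FPKM in *Atf6*+/+ replicates 1 to 5, and between 5.90 and 6.76 FPKM (median 6.205) in the *Atf6*-/- libraries, all within the range of *Atf6*+/+. Its log2 fold change of -0.020 ± 0.097 (SE) turned to 0.036 after rescaling to TPM. *Gpx8* had 30.15, 29.9, 31.15, 29.8 and 39.2 FPKM in *Atf6*+/+ replicates 1 to 5, and between 26.4 and 39.7 FPKM (median 32.3) in the *Atf6*-/- libraries. *Atf6*+/+ replicate 5, the library with the highest *Gpx3* value, also had the highest *Gpx7* and *Gpx8* values of its genotype. The *Gpx8* log2 fold change was 0.031 ± 0.10 (SE), or 0.088 ± 0.080 (SE) after rescaling to TPM and 0.11 ± 0.091 (SE) without *Atf6*+/+ replicate 5, and positive under each scaling. For both ER members the difference between genotypes was smaller than its error in the main fit.

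Across the 16169 genes tested, 11 (0.068%) had an adjusted p under 0.05 in limma, and none of the 6 members was among them. The study's cutoffs, a fold change over 0.05 with an unadjusted p no larger than 0.05, were read here as a log2 fold change beyond 0.05 in either direction, and 1592 genes (9.85%) met this rule in limma. The calls split into 724 higher (4.48%) and 868 lower (5.37%) in *Atf6*-/- cochleae, so 45.5% of calls were higher. This share was 75.2% after rescaling to TPM, where 16757 genes were tested, and 53.4% with median-of-ratios scaling, where 16161 were. After adjusting for a bone marrow score (erythroid, neutrophil and B cell marker scores averaged), 846 genes met the rule. *Gpx2* on the higher side and *Gpx1* on the lower side met this rule, a count from which nothing is read because the members were put forward with this contrast known. Under the alternatives run the count lay between 0 and 3. It was 0 with the bone marrow, erythroid, B cell or outer hair cell score as a covariate. With the neutrophil score as a covariate, or without *Atf6*+/+ replicate 4, it was 1. The groups did not overlap for 202 genes (1.25%) and for 0 of 6 members.

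Markers of other cells also differed between genotypes. In bulk tissue, fewer cells of a type and less RNA per cell cannot be told apart. Markers of red cell precursors, neutrophils and B cells, which are abundant in bone marrow, were lower in *Atf6*-/- cochleae. At the unadjusted rule, 8 of 10 erythroid, 5 of 9 neutrophil and 4 of 7 B cell markers tested were lower and none was higher, with median log2 fold changes of -1.46, -1.55 and -0.82. No marker gene of these lists was at 0 in all libraries, *Ighm* of the B cell list was not listed, and none of the lists had a gene with an adjusted p under 0.05 in limma. The summed B cell markers, with *Cd79a* as the most abundant, were 12.3, 12.6, 33.4, 36.8 and 19.8 FPKM in *Atf6*+/+ replicates 1 to 5 and 9.93 to 15.8 FPKM (median 12.1) in *Atf6*-/- libraries. Replicates 3 and 4, the highest in this list, were those with the lowest *Gpx2* and the highest *Gpx1*. Summed neutrophil markers, led by *S100a9*, were 498, 567.5, 3199, 1270 and 258 FPKM in *Atf6*+/+ replicates 1 to 5 and 93.3 to 1205 FPKM (median 264) in *Atf6*-/- libraries. Summed erythroid markers, led by *Hba-a1*, whose reads can be split with its near-identical copy *Hba-a2*, were 16140, 4840, 14930, 13740 and 46410 FPKM in *Atf6*+/+ replicates 1 to 5 and 2875 to 9392 FPKM (median 4947) in *Atf6*-/- libraries.

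With the mean of these 3 marker scores as a covariate, the *Gpx2* log2 fold change was 0.063 ± 0.229 (SE) in place of 0.68, and that of *Gpx1* was -0.17 ± 0.12 (SE) in place of -0.33. With the B cell score alone they were 0.15 ± 0.20 and -0.17 ± 0.10 (SE). With the neutrophil score alone they were 0.32 ± 0.21 and -0.25 ± 0.11 (SE), and with the erythroid score alone 0.37 ± 0.35 and -0.23 ± 0.14 (SE). The part that these cells play in the difference between genotypes was not tested.

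Outer hair cell markers stood on the other side. At the unadjusted rule 2 of 8 were higher in *Atf6*-/- cochleae and none was lower, with a median log2 fold change of 0.44. *Ocm* had a log2 fold change of 1.16 ± 0.36 (SE) and *Slc26a5*, the motor protein prestin, one of 1.2 ± 0.49 (SE), the smallest adjusted p of the list being 0.391 (limma). Summed over the list, with *Ocm* as the most abundant gene and no gene at 0 in all libraries, these markers reached 114, 93.3, 60.8, 64.3 and 77.85 FPKM in *Atf6*+/+ replicates 1 to 5. In the *Atf6*-/- libraries they ranged from 85.8 to 144.5 FPKM (median 127). *Atf6*+/+ replicates 3 and 4, lowest in *Gpx2*, were the lowest *Atf6*+/+ libraries in these markers. They were also the lowest in summed supporting cell markers (408.5 and 400 FPKM) and spiral ligament fibrocyte markers (3418 and 3575 FPKM). In summed hair cell markers they were the highest (849 and 867 FPKM), but *Pvalb* led that sum, with a mean of 670 FPKM. In the hair cell score, a mean of log2 values, the same 2 libraries were the lowest of their genotype. With the outer hair cell score as a covariate, the log2 fold changes of *Gpx2* and *Gpx1* were 0.23 ± 0.19 and -0.20 ± 0.10 (SE). With the hair cell score they were 0.59 ± 0.20 and -0.32 ± 0.10 (SE), and with the supporting cell score 0.54 ± 0.20 and -0.31 ± 0.10 (SE). Of these covariates, all but the bone marrow and erythroid scores were added after the values were seen.

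To ask which tissue makeup the members varied with apart from genotype, each member was correlated with the score of 18 marker lists over the 11 libraries, after the genotype mean had been subtracted from both. Of 108 pairs, 0 had an adjusted p under 0.05 for Pearson's r and 1 had for Spearman's rho, in exact two-sided permutation tests within genotype. At an unadjusted p under 0.05 there were 14 pairs for r and 16 for rho. The pair called by rank was *Gpx2* with the outer hair cell score, with rho = 0.89 (exact permutation p = 0.000313, adjusted p = 0.0338) and r = 0.81 (exact permutation p = 0.00907, adjusted p = 0.163). Without the 2 libraries farthest from the median score, r was again 0.81. The call by rank held in 4 of 11 fits that left out a library, with an adjusted p between 0.030 and 0.362. It was lost with a pseudocount of 1 FPKM (rho = 0.83, adjusted p = 0.175) and after rescaling to TPM (rho = 0.80, adjusted p = 0.279). By r the pair passed without *Atf6*+/+ replicate 3 (r = 0.92, adjusted p = 0.0313) or replicate 4 (r = 0.81, adjusted p = 0.0156), and in no other fit.

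*Gpx2* also ran with the spiral ligament fibrocyte score (r = 0.70, exact permutation p = 0.0322, adjusted p = 0.293; rho = 0.80, p = 0.0113, adjusted p = 0.206; r = 0.78 without the 2 farthest libraries). Its relation was inverse with the neutrophil score (r = -0.70, exact permutation p = 0.0122, adjusted p = 0.188; rho = -0.70, p = 0.0193, adjusted p = 0.206; r = -0.60 without the 2 farthest libraries) and the neuron score (r = -0.65, exact permutation p = 0.0643, adjusted p = 0.338; rho = -0.76, p = 0.0145, adjusted p = 0.206; r = -0.68 without the 2 farthest libraries). With the erythroid score it was weak (r = -0.34, exact permutation p = 0.393, adjusted p = 0.658; rho = -0.14, p = 0.702, adjusted p = 0.840; r = -0.070 without the 2 farthest libraries). It was also inverse with the B cell score (r = -0.79, exact permutation p = 0.0362, adjusted p = 0.293; rho = -0.73, p = 0.0577, adjusted p = 0.334; r = -0.80 without the 2 farthest libraries). *Gpx1* had its highest r with the adipocyte score (r = 0.81, exact permutation p = 0.00322, adjusted p = 0.116). There rho was 0.84 (exact permutation p = 0.00611, adjusted p = 0.165), and r was 0.77 without the 2 farthest libraries. With the macrophage score r was also 0.81 (exact permutation p = 0.00898, adjusted p = 0.163) and rho 0.68 (exact permutation p = 0.0424, adjusted p = 0.300). Without the 2 farthest libraries that r was 0.66. With the osteoblast score *Gpx1* had r of 0.70 (exact permutation p = 0.0365, adjusted p = 0.293) and rho of 0.63 (exact permutation p = 0.0668, adjusted p = 0.334). With the erythroid, neutrophil and B cell scores *Gpx1* had r of 0.30, 0.42 and 0.66 (exact permutation p = 0.397, 0.224 and 0.0738; adjusted p = 0.658, 0.563 and 0.338) and rho of 0.082, 0.51 and 0.51 (p = 0.827, 0.133 and 0.165; adjusted p = 0.892, 0.444 and 0.496), all with p over 0.05. *Gpx8* had its highest r with the macrophage score (r = 0.82, exact permutation p = 0.00138, adjusted p = 0.116; rho = 0.70, p = 0.0262, adjusted p = 0.236; r = 0.75 without the 2 farthest libraries). *Gpx3* and *Gpx7* had theirs with the fibroblast score. For *Gpx3* this was r = 0.72 (exact permutation p = 0.00294, adjusted p = 0.116; rho = 0.78, p = 0.00138, adjusted p = 0.0744; r = 0.68 without the 2 farthest libraries). For *Gpx7* it was r = 0.82 (exact permutation p = 0.0165, adjusted p = 0.223; rho = 0.81, p = 0.0167, adjusted p = 0.206; r = 0.66 without the 2 farthest libraries). *Gpx4* reached r = 0.65 with the adipocyte score (exact permutation p = 0.0713, adjusted p = 0.338; rho = 0.65, p = 0.0751, adjusted p = 0.353; r = 0.45 without the 2 farthest libraries). None of the relations in this paragraph passed the adjustment.

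**Figure D2:**
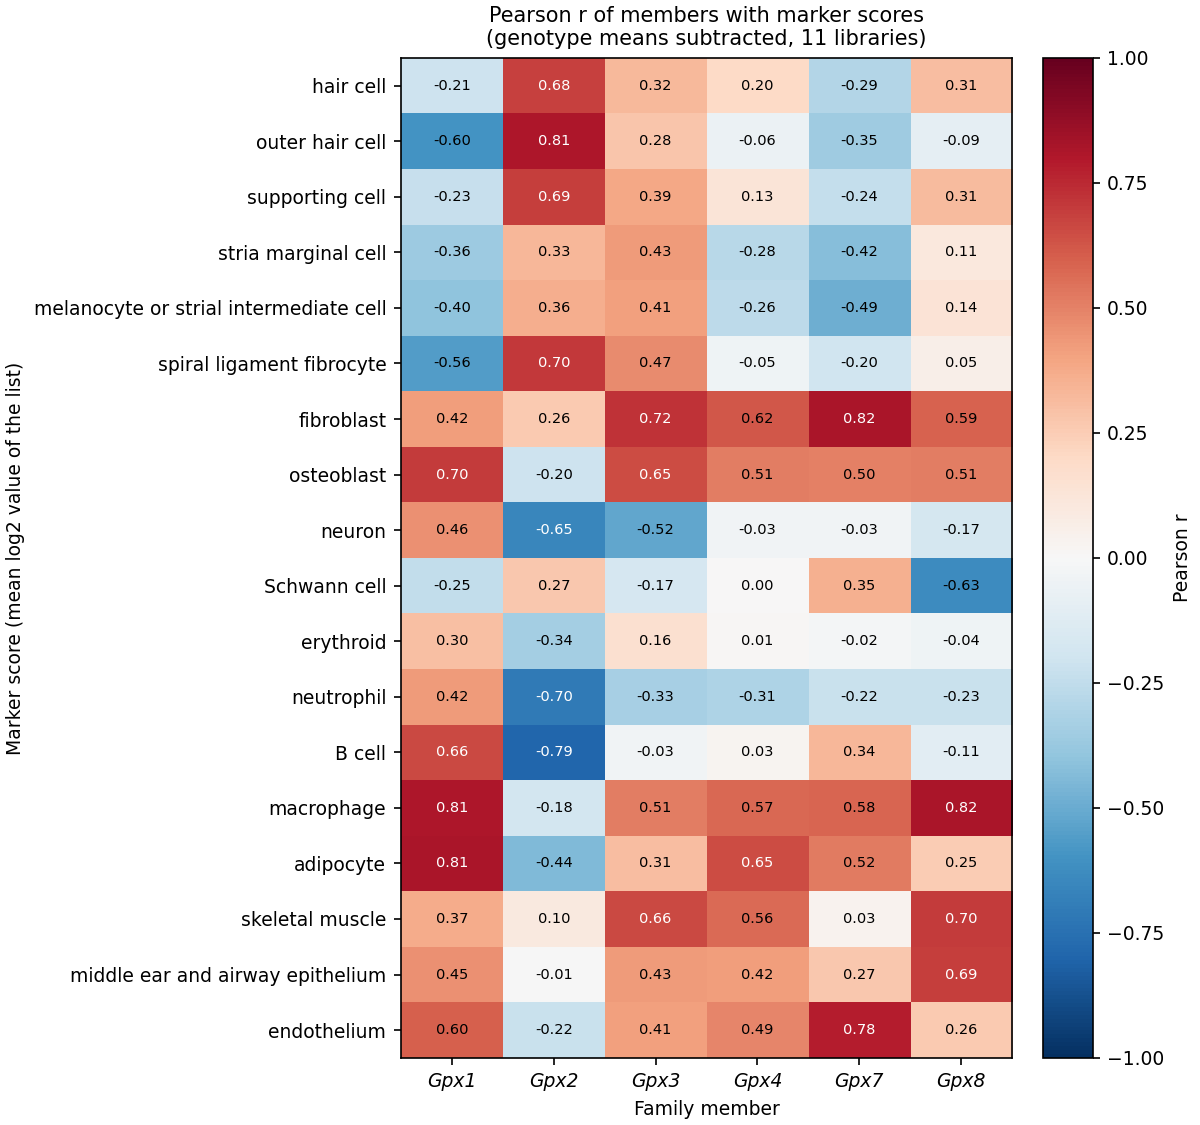
Pearson r over 11 libraries between the log2 value of each family member (columns) and each of 18 marker scores (rows), genotype means subtracted, from -1 (blue) to 1 (red). The *Gpx2* column runs from 0.81 for outer hair cell to -0.79 for B cell markers, and no r had an adjusted p under 0.05 over the 108 pairs.

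Among themselves, *Gpx3* and *Gpx8* had the highest r of the 15 pairs of members within genotypes (0.72) and *Gpx1* and *Gpx2* the lowest (-0.59), over 11 libraries and with no test. Of 13610 other genes whose mean reached 1 FPKM, the 3 whose values were most like those of *Gpx2* over the 11 libraries were *Rhpn2*, *Wnt7b* and *Nr2f1* (r of 0.98, 0.97 and 0.97). For *Gpx1* they were *Klf2*, *Trappc1* and *Cd79a*, the last of them a gene of the B cell list (r of 0.96, 0.95 and 0.94). For *Gpx3* they were *Ftl1*, the ferritin light chain, *Syngr2* and *Mpg* (r of 0.95, 0.93 and 0.92). For *Gpx4* they were *Mrps24*, *Cyhr1* and *Tmem150a* (r of 0.97, 0.97 and 0.96). For *Gpx7* they were *Lmf2*, *St6galnac6* and *Tbc1d17* (r of 0.92, 0.92 and 0.92), and for *Gpx8* they were *Glt8d1*, *P4ha2*, a collagen prolyl hydroxylase of the ER, and *Ndufaf8* (r of 0.98, 0.95 and 0.94). With so many genes searched over so few libraries, values of this size are a description only.

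The genes around the family were followed in 8 lists. Of 119 genes tested, 0 had an adjusted p under 0.05 in limma (smallest adjusted p = 0.294), and 16 met the unadjusted rule, 8 higher and 8 lower in *Atf6*-/- cochleae. That was 13.4% of these genes, beside 9.85% of all genes tested, and the median log2 fold change was -0.039 beside -0.013. The lists, like the members, were chosen with earlier results of these data known. They hold genes that the paper reports as changed, such as *Chac1* and *Slc3a2*, so nothing is read from these shares. Without *Atf6*-/- replicate 1, 8 of these genes (6.72%) met the rule, beside 8.23% of all genes in the same fit, and without *Atf6*-/- replicate 6, 9 (7.56%) did, beside 7.40%. With the bone marrow score as a covariate 10 (8.40%) did, beside 5.23%, and with the erythroid score 2 (1.68%), beside 4.82%.

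Genes that make, import or break down the glutathione used by the peroxidases held 5 of these 16 calls, from 16 genes (4 higher, 1 lower; median log2 fold change 0.021). *Chac1*, which degrades glutathione, had 4.43 ± 1.74 FPKM in *Atf6*+/+ (SD, n = 5) and 7.90 ± 1.43 FPKM in *Atf6*-/- cochleae (SD, n = 6), a log2 fold change of 0.88 ± 0.22 (SE). *Cth*, which releases cysteine from cystathionine, had a log2 fold change of 0.62 ± 0.17 (SE). *Slc3a2*, the heavy chain of the cystine importer and the most abundant gene of the list at 133 FPKM, had one of 0.20 ± 0.06 (SE). The remaining calls, named after their values were seen, were *Cbs* (0.40) and *Ggt1* (-0.38). The 5 calls became 0 with the erythroid score as a covariate, 2 with the bone marrow score and 3 without *Atf6*+/+ replicate 3. Of 14 genes that return oxidized glutathione or supply NADPH, 0 met the rule (median -0.051), and *Tkt*, the most abundant, had a log2 fold change of 0.011 ± 0.054 (SE).

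Glutathione S-transferases, which use glutathione for conjugation, held 1 call among 25 genes tested (median -0.13). This was *Mgst2* at -0.98 ± 0.42 (SE), while *Gstp1*, the most abundant at 243 FPKM, had -0.072 ± 0.10 (SE). The other selenoproteins, which draw on the same selenocysteine supply as *Gpx1* to *Gpx4*, held 4 calls among 18 genes (median -0.024). The deiodinase gene *Dio3* was higher, with a log2 fold change of 0.72 ± 0.29 (SE), from means of 0.11 and 0.24 FPKM, as was *Dio2* (0.41), named after its value was seen. *Msrb1*, a methionine sulfoxide reductase, and *Selenoh* were lower, at -0.21 ± 0.09 and -0.22 ± 0.10 (SE). *Selenow*, the most abundant at 374 FPKM, had -0.14 ± 0.09 (SE). The 4 calls became 0 without *Atf6*-/- replicate 1, 1 without *Atf6*-/- replicate 6 and 1 with either the bone marrow or the erythroid score as a covariate. Of 10 genes for selenocysteine insertion and selenium supply, *Trnau1ap*, whose product binds the selenocysteine transfer RNA, met the rule at -0.21 ± 0.08 (SE; list median 0.00068), and *Secisbp2l*, the most abundant, had 0.076 ± 0.107 (SE).

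Other enzymes that remove peroxide or superoxide held 2 calls among 13 genes (median -0.055). *Prdx6*, which like *Gpx4* acts on phospholipid hydroperoxides, was higher at 0.24 ± 0.11 (SE), and *Txn1*, the cytosolic thioredoxin, lower at -0.20 ± 0.07 (SE). *Sod1*, the most abundant, had -0.086 ± 0.075 (SE). Among 9 tested partners of *Gpx7* and *Gpx8* in ER oxidative folding (median -0.017), *P4hb*, the major protein disulfide isomerase, met the rule at 0.15 ± 0.05 (SE), and *Pdia3*, the most abundant, had -0.13 ± 0.07 (SE). Among 15 genes of lipid peroxidation and ferroptosis around *Gpx4* (median -0.049), 2 met the rule. These were *Tfrc*, the transferrin receptor, at -0.30 ± 0.10 (SE) and *Alox15*, a lipoxygenase, at -0.95 ± 0.40 (SE). *Fth1*, the most abundant at 3564 FPKM, had -0.077 ± 0.113 (SE). Counts this small moved with single libraries. Leaving out each library gave 0 to 2 calls for NADPH supply, for the S-transferases and for selenocysteine insertion, 1 to 4 for peroxide removal, 1 to 2 for ER folding and 1 to 3 for ferroptosis. The *Mgst2* list had 0 calls without *Atf6*+/+ replicate 4, *Atf6*-/- replicate 5 or *Atf6*-/- replicate 6, and the *Trnau1ap* list had 0 without *Atf6*+/+ replicate 5, *Atf6*-/- replicate 1 or *Atf6*-/- replicate 6. With the bone marrow score as a covariate, S-transferases held 3 calls, selenocysteine insertion 2, ferroptosis 2, peroxide removal 0 and ER folding 0, and with the erythroid score 1, 0, 0, 0 and 0.

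**Figure D3:**
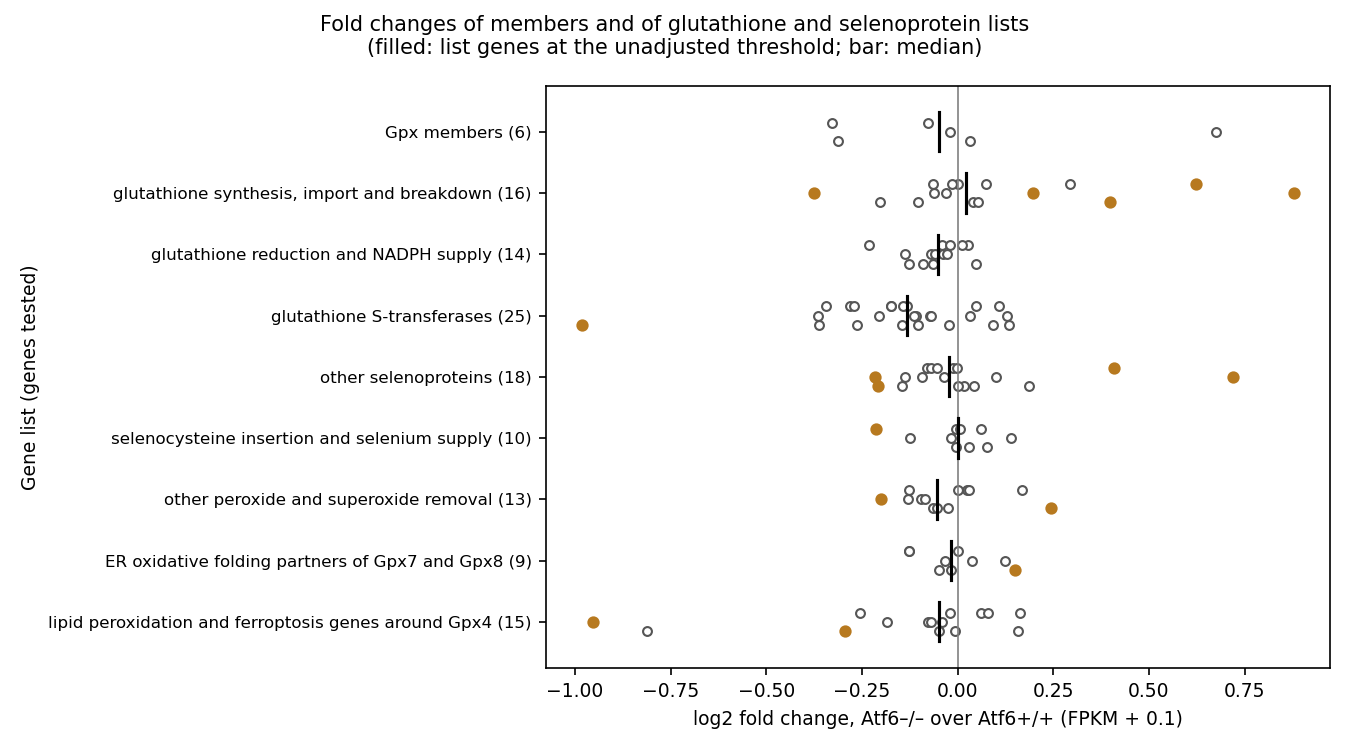
Log2 fold change of *Atf6*-/- over *Atf6*+/+ (horizontal axis) for the 6 members and the genes tested in each of 8 lists, with the number of genes in brackets and the list median as a black bar. Filled points met the unadjusted rule, 16 among the 119 list genes, and members are drawn open.

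The remaining marker lists are given as calls at the unadjusted rule with the median log2 fold change of the list. Of the cochlear lists, 1 of 9 hair cell markers (lower; median 0.18), 1 of 9 supporting cell markers (higher; 0.15), 0 of 6 stria marginal cell markers (0.036), 0 of 6 melanocyte or intermediate cell markers (-0.14), 1 of 6 spiral ligament fibrocyte markers (higher; 0.33), 2 of 7 neuron markers (lower; -0.13) and 1 of 7 Schwann cell markers (higher; 0.029) were called. Of the others, 2 of 7 fibroblast markers (lower; -0.12), 0 of 8 osteoblast markers (-0.33), 0 of 8 macrophage markers (-0.17), 1 of 4 adipocyte markers (lower; -1.02), 0 of 7 skeletal muscle markers (0.093), 1 of 5 middle ear and airway epithelium markers (lower; -0.56) and 2 of 6 endothelium markers (1 higher, 1 lower; -0.068) were called.

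The catalytic codon, which divides the family into selenocysteine and cysteine enzymes, is shown with the coding bases around it, from GENCODE release M21 on GRCm38. Each line gives 30 bases of the coding strand, with the codon for the catalytic residue in capitals.
Gpx1: aatgtcgcgtctctcTGAggcaccacgatc
Gpx2: aatgtggcgtcactcTGAggaacaactacc
Gpx3: aacgtagccagctacTGAggtctgacagac
Gpx4: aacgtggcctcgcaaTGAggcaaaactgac
Gpx7: aacgtagctagcgaaTGTggcttcacagac
Gpx8: aacgtggctagtgacTGCcgcttcacagac

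The TGA codons lie in exon 1 of 2 of *Gpx1* (codon 47, chr9:108339451-108339453, plus strand) and exon 1 of 2 of *Gpx2* (codon 40, chr12:76795256-76795258, minus strand). In *Gpx3* the TGA codon lies in exon 2 of 5 (codon 73, chr11:54907256-54907258, plus strand) and in *Gpx4* in exon 3 of 7 (codon 73, chr10:80054737-80054739, plus strand). The cysteine codons, which stand at the matching place, lie in exon 2 of 3 of *Gpx7* (codon 56, chr4:108403430-108403432, minus strand) and exon 2 of 3 of *Gpx8* (codon 79, chr13:113045661-113045663, minus strand). *Gpx1* and *Gpx2*, whose fold changes had opposite signs, shared 24 of 30 bases, and the ER pair *Gpx7* and *Gpx8* shared 25 of 30. No exon of another gene overlapped an exon of a member in this annotation. Processed pseudogenes of *Gpx2* and *Gpx4* are annotated and were not analysed here, so reads shared with them leave the levels of both genes uncertain.

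Upstream of the members, 9 promoter windows (RefSeq, GRCm38.p6, 250 bases before to 50 after each start, 4 of them for *Gpx4*, partly overlapping) were searched on both strands for 4 motifs. The antioxidant response element (TGACNNNGC) was in 0 of 9 windows and in 12.4% of all 32851 windows. The ER stress response element (CCAAT and CCACG 9 bases apart) was in 0 of 9 and in 0.119% of all windows, the unfolded protein response element (TGACGTG) in 0 of 9 and in 2.01%, and the amino acid response element (TGATGNAAT) in 0 of 9 and in 0.965%. These letters were not in these windows, and nothing is drawn from that about any factor.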

How the data were processed

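The authors sequenced stranded mRNA libraries of whole cochleae (BGI, DNBSEQ), aligned reads to GRCm39 with HISAT2 2.0.4 and estimated expression with RSEM, and their own tests used DESeq2 1.4.5. The deposited FPKM values were used here. The methods state a nominal depth for all samples. The analysis made no use of counts, and it neither measured the depth that single libraries reached nor computed a counting error. FPKM summed to between 462000 and 537900 per library.

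After adding 0.1 FPKM, log2 values of the 16169 genes whose mean reached 0.1 FPKM were fitted with genotype as the only term in limma 3.58.1 (R 4.3.3; mean-variance trend, two-sided, Benjamini-Hochberg adjustment). P-values from limma weigh the difference between genotypes against the spread between libraries. Because the mouse of each cochlea is not given, they cannot be said to cover the spread between mice. Members and lists were chosen with earlier results of these data known. Marker scores were the mean log2 value of a list. Correlations used all 86400 arrangements of libraries within genotype (smallest p 1.16e-05), adjusted over 108 pairs (numpy 2.4.6, scipy 1.17.1, Python 3.11.15). The model and the correlation test were tested on simulated data, from which no value is given here.

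Named genes were the members and *Gpx5* and *Gpx6*, *Atf6*, the 3 genes most like each member, and, per list, genes with an adjusted p under 0.05 or else the 3 smallest unadjusted p of at most 0.05, with the most abundant gene. Alternatives were pseudocounts of 1 and 0.01, other filters, robust variance, TPM, a replicate block, median-of-ratios scaling, marker scores as covariates and leaving out each library.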

Additional observations from a re-analysis of the deposited data

Results flagged for a closer look

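In 52 groups of values (8 genes and 18 marker sums in 2 genotypes), 8 were flagged by Dixon's test for a library far from the others. Chance gives about 1 in 20 groups. *Gpx5* stood at 0.03 FPKM in *Atf6*-/- replicate 2 and at 0 in the other *Atf6*-/- libraries. The 8 flags leave this group out although its gap spans the whole range, so its absence is not a sign of even values. *Gpx3* stood at 399.8 FPKM in *Atf6*+/+ replicate 5, with the next highest library at 248 FPKM. *Gpx8* stood at 39.2 FPKM in the same library, with the next at 31.15 FPKM. The summed erythroid markers of that library, at 46410 FPKM, were also far above the next, at 16140 FPKM. *Atf6*+/+ replicate 4 had the lowest summed melanocyte or intermediate cell markers (11.3 FPKM, next 85.2 FPKM), the highest Schwann cell markers (6729 FPKM, next 5926 FPKM) and the highest adipocyte markers (52.1 FPKM, next 5.07 FPKM). Neutrophil markers were highest in *Atf6*-/- replicate 4 (1205 FPKM, next 349 FPKM), and skeletal muscle markers in *Atf6*-/- replicate 3 (39.2 FPKM, next 3.17 FPKM), the library with the highest *Gpx1*, *Gpx3*, *Gpx4* and *Gpx8* values of its genotype. The part of these libraries in the family's values was not tested beyond leaving out each in turn.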

How the results depend on the processing

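The signs of the *Gpx1*, *Gpx2*, *Gpx3* and *Gpx4* log2 fold changes were the same under every alternative run, while those of *Gpx7* and *Gpx8*, smaller than their errors in the main fit, changed sign under some. Leaving out each library gave -0.40 to -0.27 for *Gpx1*, 0.40 to 0.81 for *Gpx2*, -0.46 to -0.15 for *Gpx3*, -0.11 to -0.047 for *Gpx4*, -0.078 to 0.040 for *Gpx7* and -0.026 to 0.11 for *Gpx8*. With the bone marrow score (mean of the erythroid, neutrophil and B cell scores) as a covariate, the *Gpx2* log2 fold change was 0.063, 6 genes had an adjusted p under 0.05, 846 met the unadjusted rule and 10 of the pathway list genes met it. With the erythroid score these counts were 4, 779 and 2. Covariates chosen after seeing the data gave 0.15 for *Gpx2* and 902 genes (B cell score), 7 and 970 genes (neutrophil score) and 833 genes at the unadjusted rule (outer hair cell score), while the hair cell score gave 16 and 1537 genes and the supporting cell score 13 and 1400. The cause was not tested.

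Leaving out each library gave 8 to 18 pathway list genes at the unadjusted rule, 0 to 2 member and marker pairs for r and 0 to 2 for rho. With a pseudocount of 1 or TPM, 0 pairs passed for rho.

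Same-numbered libraries shared only a number: their deviations correlated between -0.21 and 0.12, and 1 of 5 correlated best with its own number. The replicate block gave 4 genes with an adjusted p under 0.05, 1078 at the unadjusted rule and 9 pathway list genes, with -0.34 for *Gpx1* and 0.67 for *Gpx2*. It leaves *Atf6*-/- replicate 6 without a partner. Leaving out that library alone gave the same fold changes, 1197 genes at the unadjusted rule and also 9 pathway list genes. That fit gave 9 genes with an adjusted p under 0.05, beside 4 with the block. Counts were not used, so no detection limit was computed for *Gpx5* and *Gpx6*.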
